A study of Mus spretus with 8 samples.

Results

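Mitochondrial fatty acid oxidation and ketogenesis were followed in the liver as a group of 34 genes, taken by name from the probe annotation of the array. Of these, 33 had at least 1 probe among the 22471 genes and 42957 probes measured, with 61 probes in all. Acsl1 was not analysed here, as no probe in the annotation table carried that symbol. A gene is represented by its brightest probe, that is, the one whose 8 arrays had the highest mean. Counts over the group use this probe for Cpt1a too, and all of its 11 probes are described in addition. The livers came from male Mus spretus mice of the inbred SPRET/EiJ strain, aged 7 weeks at the start. For 30 days, 4 control mice ate Harlan diet and corn oil without the compound, and 4 mice of the DDE group ate that feed and oil with p,p'-DDE at 450 mg/kg of feed. p,p'-DDE is the long-lived breakdown product of the insecticide DDT. RNA of liver tissue was measured on 1-colour arrays, 1 array per sample and mouse, and every value is a log2 intensity as the authors normalized it. A change is the mean of the 4 DDE arrays minus the mean of the 4 control arrays on that scale.

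Long-chain fatty acids are bound to coenzyme A by acyl-CoA synthetases and carried into mitochondria as carnitine esters, with CPT1 as the regulated entry step. Inside, each turn of the oxidation spiral runs through a dehydrogenase, a hydratase, a second dehydrogenase and a thiolase, and the electrons of the first step pass through the electron transfer flavoprotein to the respiratory chain. The liver turns much of the acetyl-CoA formed into ketone bodies during fasting, when the receptor PPARalpha, activated by fatty acids, raises many genes of this pathway. The comparison asks which of these genes differed in the liver after 30 days of dietary p,p'-DDE.

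The arrays differed from each other by position, and this touches most of the results. Among 9934 probes with a mean of at least 9, the deviation from the median of the 8 arrays drifted along the rows of the array. Over 19 blocks of 28 rows, the median deviation of control 4 ran from 0.01 to -0.92, and it lay below 0 in 18 of the 19 blocks. DDE 4 ran from -0.50 in the upper blocks to 0.15 in the lower ones, and control 1 and DDE 1 rose to 0.44 and 0.50 in the last block. The mean drift was higher in the DDE arrays than in the controls in 16 of the 19 blocks, by up to 0.35. Stained patches covered from 0.522% (DDE 1) to 9.50% (control 4) of the spots. The changes of all probes were therefore computed from the deposited values and again after the local median deviation of the surrounding brighter spots was subtracted on each array (local trend subtracted), a setting chosen after seeing the data. Of the 33 genes, 26 had a mean of at least 9 and were corrected, and 7 dimmer ones keep their deposited values.

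**Figure D1:**
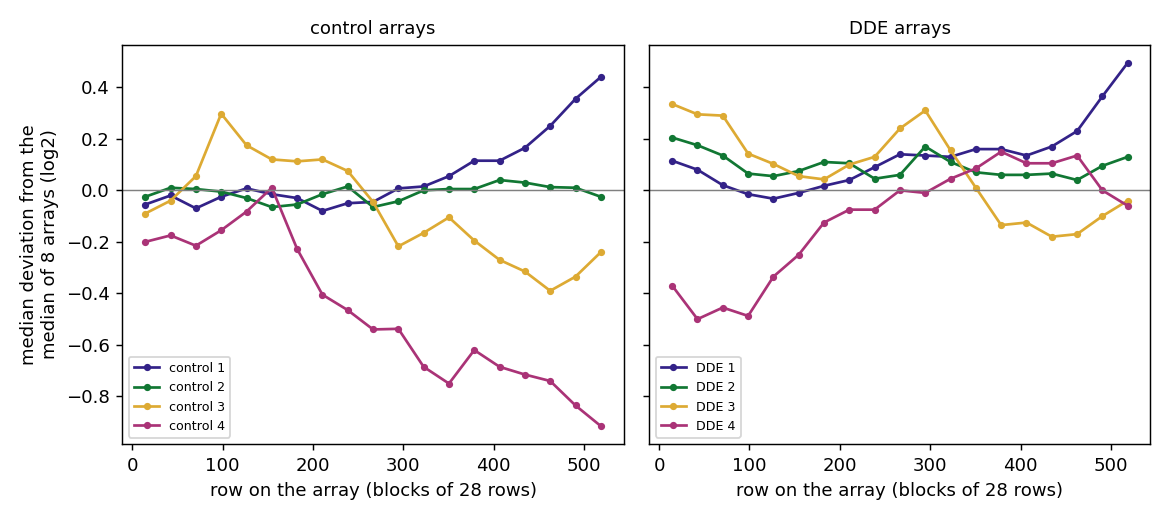
Median deviation of probes with a mean of at least 9 from their median over the 8 arrays (y axis, log2) against the row on the array (x axis, 19 blocks of 28 rows), control arrays on the left and DDE arrays on the right, 1 line per array. Control 4 falls to -0.92 in the last block, and DDE 4 is lowest, at -0.50, in the upper blocks.

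Of the 33 genes, 2 rose (Cpt1a and Acsm5), 2 fell (Acsm3 and Cpt1b) and 29 did not pass the test (limma, Benjamini-Hochberg adjusted p under 0.05 over all probes). These 4 genes are 12.1% of the group, while 3.35% of all genes passed (2.58% higher and 0.774% lower). The group was chosen with earlier results of these data known, so its share cannot test for an excess. Among the 28 members above background on all 8 arrays 3 passed, against 7.18% of all genes above background on all 8 arrays. The median change of the 33 genes was 0.10, with 19 of 33 above 0 (52.9% of all genes were) and 14 below, beside 0.015 over all genes and 0.14 over the 6371 genes with a mean of at least 9. With the local trend subtracted, 4 genes rose (Cpt1a, Acsm5, Acadl and Acad11) and 3 fell (Acsm3, Acsm1 and Cpt1b), where 7.70% of all genes passed (4.54% higher and 3.16% lower), and the median became -0.20 beside -0.0025 over all genes. Of the 28 members above background 6 then passed, where the share of all such genes was 17.6%. All 4 genes called on the deposited values were also called on these, and 8 of the 33 genes changed sign. Cpt1b, with a mean under 9, was not corrected, so its second call rests on the same values and is no check. In these samples of liver tissue, fewer cells of a type and less RNA per cell cannot be told apart.

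**Figure D2:**
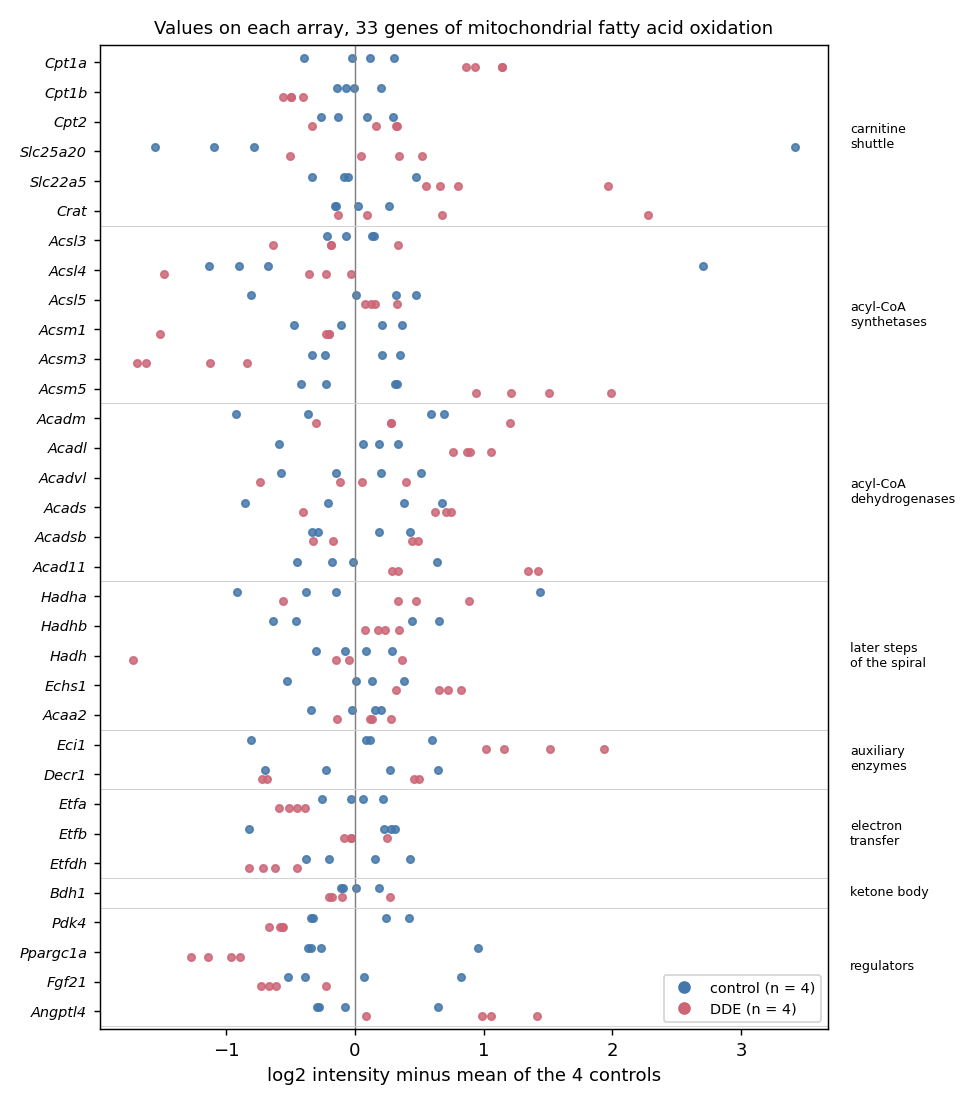
Log2 intensity of each of the 33 genes on each array, minus the mean of its 4 controls (x axis), with genes in rows grouped by role (blue, 4 control arrays; red, 4 DDE arrays). The 4 red dots of Cpt1a and Acsm5 lie right of all blue dots and those of Acsm3 and Cpt1b left of them, while single control dots of Slc25a20 and Acsl4 lie far to the right.

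Cpt1a, the liver form of carnitine palmitoyltransferase 1, makes the acylcarnitines that enter mitochondria. At its brightest probe the control livers had 11.39, 11.20, 11.06 and 10.69, and the DDE livers 12.23, 12.02, 11.95 and 12.23. Every DDE value lay above every control value, and control 4 was the lowest. The mean went from 11.09 ± 0.30 to 12.11 ± 0.14 (SD, n = 4 each), 2.03-fold, with a change of 1.02 (SE 0.16, limma adjusted p = 0.0234). It did not pass without control 2, control 3, DDE 1, DDE 2 or DDE 3 (adjusted p from 0.0531 to 0.0707). With the local trend subtracted the rise was 1.59-fold (change 0.67, SE 0.11, adjusted p = 0.0132). This probe was selected as the brightest of 11, and its change was also the largest of the 11.

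The other Cpt1a probes gave smaller changes in the same direction. All 11 had a higher mean after DDE, by 0.21 to 1.02 with a median of 0.61, but only the brightest passed on the deposited values (adjusted p from 0.0234 to 0.802), where 3.00% of all probes passed. In 3 of the 11 the groups did not overlap, as in 11.8% of all probes. The median over the 11 probes was 11.25, 11.12, 11.06 and 10.30 in the controls and 11.83, 11.32, 11.27 and 11.47 after DDE. These medians did not overlap, although DDE 3, at 11.27, was barely above control 1. After the subtraction of the local trend, 10 of the 11 probes were higher, with a median change of 0.35 and 1 probe past the threshold (6.84% of all probes were). The corrected medians ran from 10.93 to 11.25 in controls and from 11.31 to 11.70 after DDE. When the probes of each gene were averaged before the fit, Cpt1a did not pass (change 0.59, adjusted p = 0.336). Probe sequences were not used here, so probes that repeat a sequence cannot be told from probes for different stretches of the transcript.

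**Figure D3:**
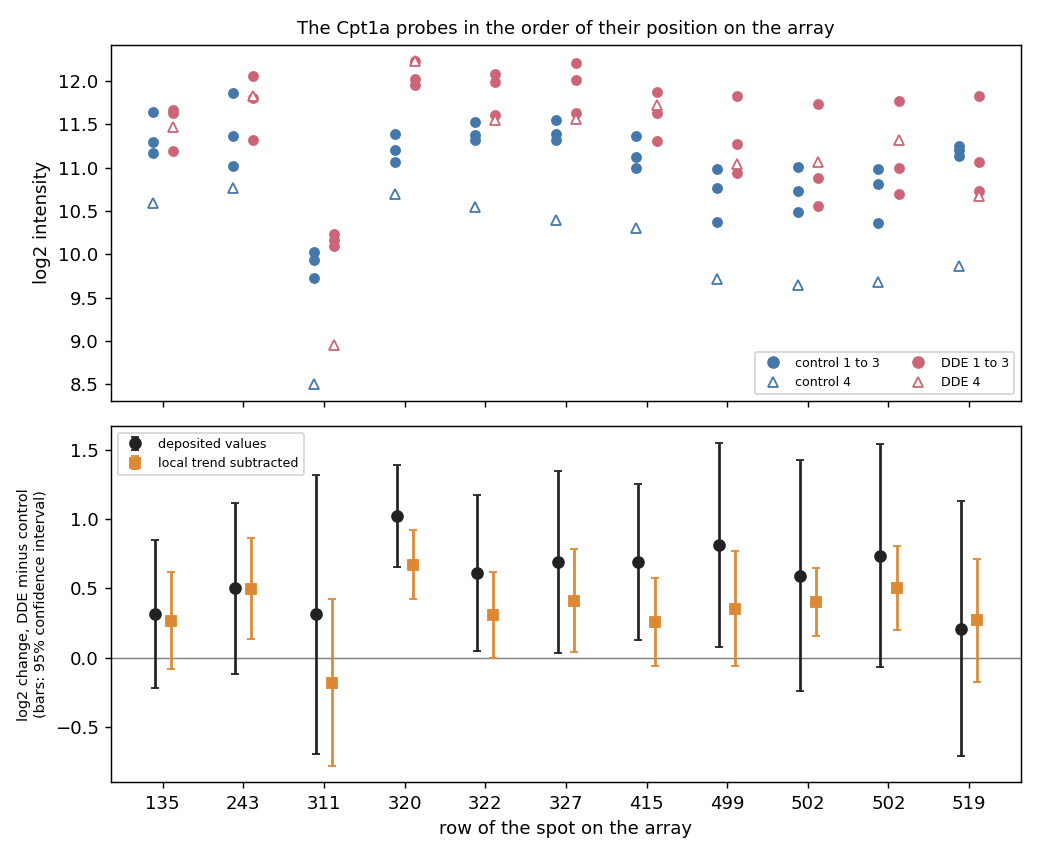
The 11 Cpt1a probes ordered by the row of their spot on the array (x axis), with the log2 intensity on each array above (triangles, control 4 and DDE 4) and the log2 change with its 95% confidence interval below, for deposited values (black) and with the local trend subtracted (orange). Control 4 is the lowest array at all 11 probes, and the corrected changes run from -0.18 to 0.67.

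Cpt1b is the muscle form of the same enzyme and was close to background in these livers. Its controls had 8.04, 8.10, 7.97 and 8.31, and the DDE livers 7.61, 7.55, 7.70 and 7.61, and 2 of these 4 DDE values exceeded the background level of their array. The groups did not overlap, and the fall was at least 1.35-fold (change -0.49, SE 0.087, adjusted p = 0.035). It passed without control 4 but not without any other single array (adjusted p from 0.0548 to 0.11). Its other probe also gave non-overlapping groups, with a change of -0.42 (adjusted p = 0.127). Raising the values below background to that level made the change -0.44 (adjusted p = 0.0652). Skeletal muscle markers were measured in the same samples. Ckm, Acta1, Myh4 and Tnnt3, 4 of 5 listed, were above background on all 8 arrays and Mylpf was on none. The mean log2 level of the 5 ran from 10.66 to 11.04 in controls and from 9.02 to 10.84 after DDE, and none of the 5 passed the test. Their part in the Cpt1b result was not tested.

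The other carnitine shuttle genes did not pass at their brightest probes. Slc22a5, the plasma membrane carnitine transporter, had 7.79, 7.82, 8.35 and 7.54 in controls and 8.43, 8.68, 9.84 and 8.54 after DDE. The groups did not overlap, but the highest value, that of DDE 3, was on a stained spot (change 1.00, 95% confidence interval 0.20 to 1.79, adjusted p = 0.206). Cpt2, which turns acylcarnitines back into acyl-CoA inside mitochondria, had 12.45 ± 0.25 in controls and 12.57 ± 0.31 after DDE, with an interval of the change from -0.32 to 0.56. A dimmer probe of Cpt2 did pass, with 8.49 in controls and 9.06 after DDE (change 0.57, adjusted p = 0.0479). Slc25a20, the carrier that exchanges acylcarnitine for carnitine across the inner membrane, had 13.60 in control 2 on a stained spot and 8.63 to 9.40 in the other controls, against 9.68 to 10.70 after DDE. Without control 2 its change was 1.24 in place of 0.10, with adjusted p = 0.13. Crat, which moves short acyl groups between carnitine and coenzyme A, exceeded background in 1 control and 3 DDE livers, and its 2 highest DDE values, in DDE 2 and DDE 3, were on stained spots (adjusted p = 0.595).

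Acyl-CoA synthetases moved in both directions. Acsm5, a mitochondrial synthetase of the medium-chain family, had 11.95, 11.97, 11.22 and 11.42 in controls and 12.85, 13.15, 13.63 and 12.58 after DDE. All DDE values exceeded all controls, and the rise was 2.66-fold (11.64 ± 0.38 to 13.05 ± 0.45, change 1.41, SE 0.27, adjusted p = 0.0435). It passed without DDE 4 but not without any other single array (adjusted p from 0.0674 to 0.128). Subtraction of the local trend left a rise of 1.75-fold (0.81, adjusted p = 0.0356), and without control 4 this was 0.82 with adjusted p = 0.0667.

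Acsm3, another mitochondrial synthetase of that family, went the other way. Its controls had 10.70, 10.56, 10.11 and 10.01 and the DDE livers 9.51, 8.72, 9.22 and 8.65. The groups did not overlap, and the fall was 2.50-fold (10.35 ± 0.34 to 9.03 ± 0.41, change -1.32, SE 0.25, adjusted p = 0.04). It did not pass without control 1, 2 or 3 or without DDE 2, 3 or 4 (adjusted p from 0.064 to 0.117). Its other probe had a change of -1.30 with no overlap (adjusted p = 0.0938). On the values with the trend removed both probes fell, by 1.53 and 1.35 on the log2 scale (adjusted p = 0.00597 and 0.00641).

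Acsm1 had 13.66, 13.82, 13.34 and 12.98 in controls and 13.25, 13.23, 11.94 and 13.25 after DDE, with DDE 3 far below the rest and overlapping groups (change -0.53, adjusted p = 0.569). On the values with the trend removed it fell by 0.93 (adjusted p = 0.0428), but not past the threshold without control 4 (adjusted p = 0.0885) or DDE 4 (0.0805), and its dimmer probe did not pass in either form. Among the long-chain synthetases, Acsl3 changed by -0.17 and Acsl5 by 0.17, with intervals from -0.65 to 0.31 and from -0.46 to 0.80. Acsl4 was at 14.25 in control 2, on a stained spot, against 10.41 to 10.87 in the other controls and 10.06 to 11.51 after DDE. Its change of -0.52 turned to 0.38 without control 2, and neither passed (adjusted p = 0.78 and 0.649).

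**Figure D4:**
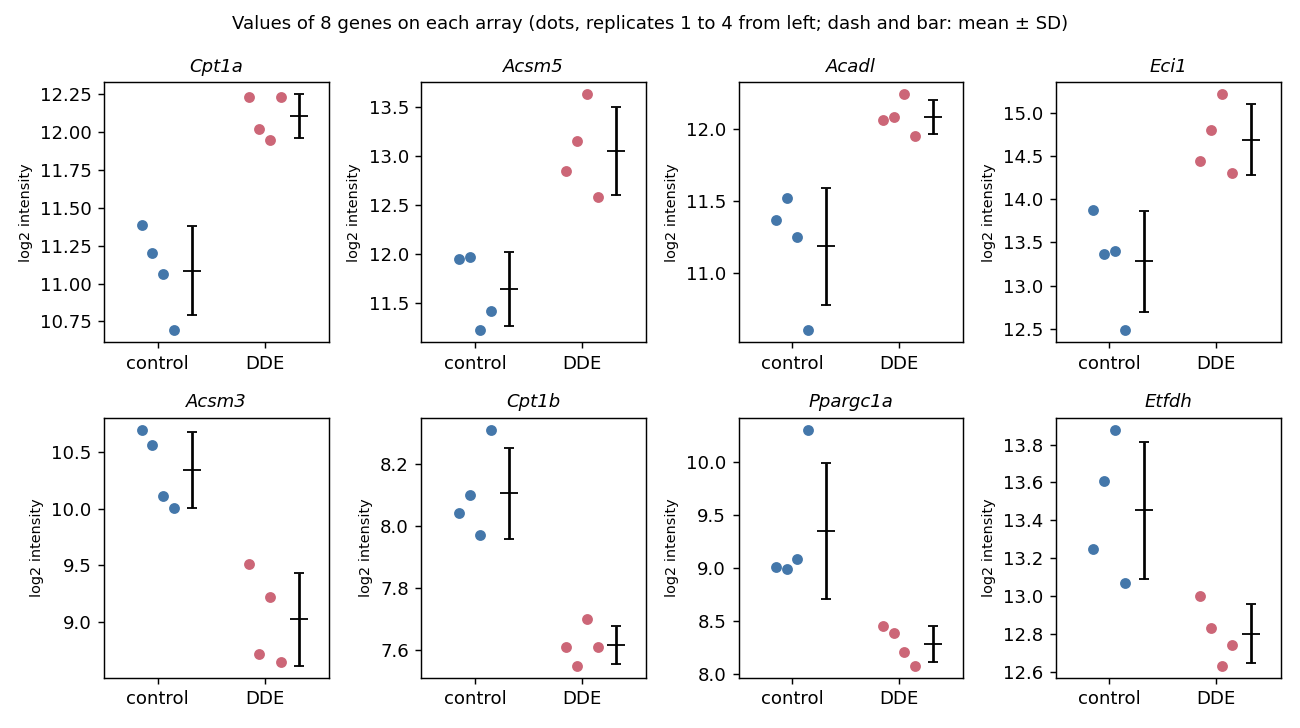
Log2 intensity of 8 genes on each array (dots, y axis; control in blue, DDE in red) with the mean and SD of each group of 4. In these 8 genes the groups do not overlap; Cpt1a, Acsm5, Acadl and Eci1 are in the upper row with higher DDE values, and Acsm3, Cpt1b, Ppargc1a and Etfdh in the lower row with lower ones.

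The acyl-CoA dehydrogenases, which open each turn of the spiral, did not pass on the deposited values, and 5 of 6 had a higher mean after DDE. With the local trend subtracted 4 of 6 had a higher mean. Among the 6371 genes with a mean of at least 9, 3834 were higher on the deposited values and 3085 with the trend subtracted. Acadl, the long-chain enzyme, had 11.37, 11.52, 11.25 and 10.60 in controls and 12.06, 12.08, 12.24 and 11.95 after DDE. No values overlapped, and the change was 0.90 (SE 0.20, adjusted p = 0.0656), with control 4 the lowest. It passed without control 4 (change 0.70, adjusted p = 0.0267), with stained spots left out (adjusted p = 0.0409) and with the local trend subtracted (0.61, SE 0.086, 1.53-fold, adjusted p = 0.0093). Acadl passed in 10 of 25 alternative settings.

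Acad11, an enzyme for longer acyl chains, had 12.10, 11.44, 11.28 and 11.01 in controls and 12.88, 11.79, 11.75 and 12.80 after DDE. Control 1 overlapped the DDE values, and the change of 0.85 did not pass (adjusted p = 0.324). Once the local trend was subtracted the groups separated and Acad11 rose by 0.61 (1.53-fold, adjusted p = 0.0404), though not past the threshold without control 4 (0.65, adjusted p = 0.0599). The medium-chain enzyme Acadm had 12.43 ± 0.78 in controls and 12.79 ± 0.62 after DDE, the short-chain enzyme Acads 10.69 ± 0.68 and 11.10 ± 0.55, and the very-long-chain enzyme Acadvl 14.66 ± 0.47 and 14.56 ± 0.47. Their adjusted p were 0.698, 0.634 and 0.884. Acadsb, for short branched chains, changed by 0.11 (interval -0.50 to 0.72), and by -0.41 with the local trend subtracted (adjusted p = 0.482). The spread of Acadm and Acads narrowed with the local trend subtracted, from SE 0.46 to 0.20 and from 0.40 to 0.10, and their changes were then 0.28 and 0.25 (adjusted p = 0.561 and 0.253).

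None of the 5 genes for the later steps of the spiral passed in limma with either set of values, and on the deposited values 1 reached an unadjusted p under 0.05, with a higher mean. Echs1, the short-chain enoyl-CoA hydratase, had 13.79, 14.04, 13.67 and 13.13 in controls and 14.31, 14.38, 13.98 and 14.48 after DDE. Only control 2 reached into the DDE range (change 0.63, adjusted p = 0.187), and the change was 0.29 with the local trend subtracted. Hadha and Hadhb, the 2 subunits of the trifunctional protein for long chains, changed by 0.29 and 0.21 (adjusted p = 0.805 and 0.737), and Hadha had stained spots in control 2 and DDE 3, the highest value of each group. Hadh, the hydroxyacyl-CoA dehydrogenase for shorter chains, had 12.97 in DDE 2 and 14.39 to 15.06 in the other 7 livers (adjusted p = 0.67).

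Acaa2, the mitochondrial thiolase, was near the top of the scale. Its brightest probe had 15.66 ± 0.25 in controls and 15.76 ± 0.17 after DDE, with 3 of 4 control values and 4 of 4 DDE values within 0.5 of the top of the scale, 16. Its 10 probes changed by -0.18 to 0.91 with 5 higher and 5 lower, and none passed (adjusted p from 0.055 to 0.944). The range after subtraction of the trend was -0.48 to 0.15.

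Of the auxiliary enzymes for unsaturated fatty acids, Eci1, an enoyl-CoA isomerase, had 13.88, 13.37, 13.40 and 12.48 in controls and 14.44, 14.80, 15.22 and 14.30 after DDE. The groups did not overlap and the change was 1.41 (SE 0.33, adjusted p = 0.0763). Its spots lay in stained patches on control 4, DDE 2 and DDE 3, and the drift around it was higher in the DDE arrays by 1.05. The change with the trend removed was 0.36 (adjusted p = 0.165) and the groups overlapped. Decr1, a dienoyl-CoA reductase, had 14.73 ± 0.59 and 14.62 ± 0.68 (adjusted p = 0.908). Its other probe, near background, went from 7.72 to 8.44 (change 0.72, adjusted p = 0.051).

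Electron transfer genes had lower means after DDE for 2 of 3. Etfa, the alpha subunit of the flavoprotein, had 14.20, 14.43, 14.68 and 14.52 in controls and 14.07, 14.01, 13.87 and 13.95 after DDE. Etfdh, which hands its electrons to ubiquinone, had 13.25, 13.61, 13.88 and 13.07 in controls and 13.00, 12.83, 12.63 and 12.74 after DDE. The groups were separate for both genes, and the changes were -0.48 (SE 0.11, adjusted p = 0.0721) and -0.65 (SE 0.19, adjusted p = 0.132). Around the 2 spots the drift differed between the groups by -0.054 and -0.096. Their block, rows 85 to 112, had the lowest drift of DDE minus control (-0.10), with control 3 at 0.30 and DDE 4 at -0.49. The changes of Etfa and Etfdh were -0.43 and -0.56 with the local trend subtracted (adjusted p = 0.117 and 0.0609). A dimmer Etfa probe had a change of 0.54 with overlapping groups (adjusted p = 0.633).

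Etfb, the beta subunit, had 15.49, 15.57, 15.54 and 14.44 in controls and 15.18, 15.23, 15.23 and 15.51 after DDE. Control 4 was the low one and DDE 4 the high one, and the change was 0.03 (adjusted p = 0.966). With both arrays left out, the change was -0.32, but they are the arrays whose Etfb values stood apart, so no call is made from that value. Of its 8 values, 2 control values and 1 DDE value lay within 0.5 of the top of the scale. Across the 33 genes, the groups did not overlap in 11, or 33.3%, where 12.5% of all genes had no overlap. Of the 28 members above background on all 8 arrays this held for 9, or 32.1%, beside 21.4% of all such genes. The 11 were Cpt1a, Slc22a5, Acsm5, Acadl and Eci1 with higher DDE values and Cpt1b, Acsm3, Etfa, Etfdh, Pdk4 and Ppargc1a with lower ones.

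**Figure D5:**
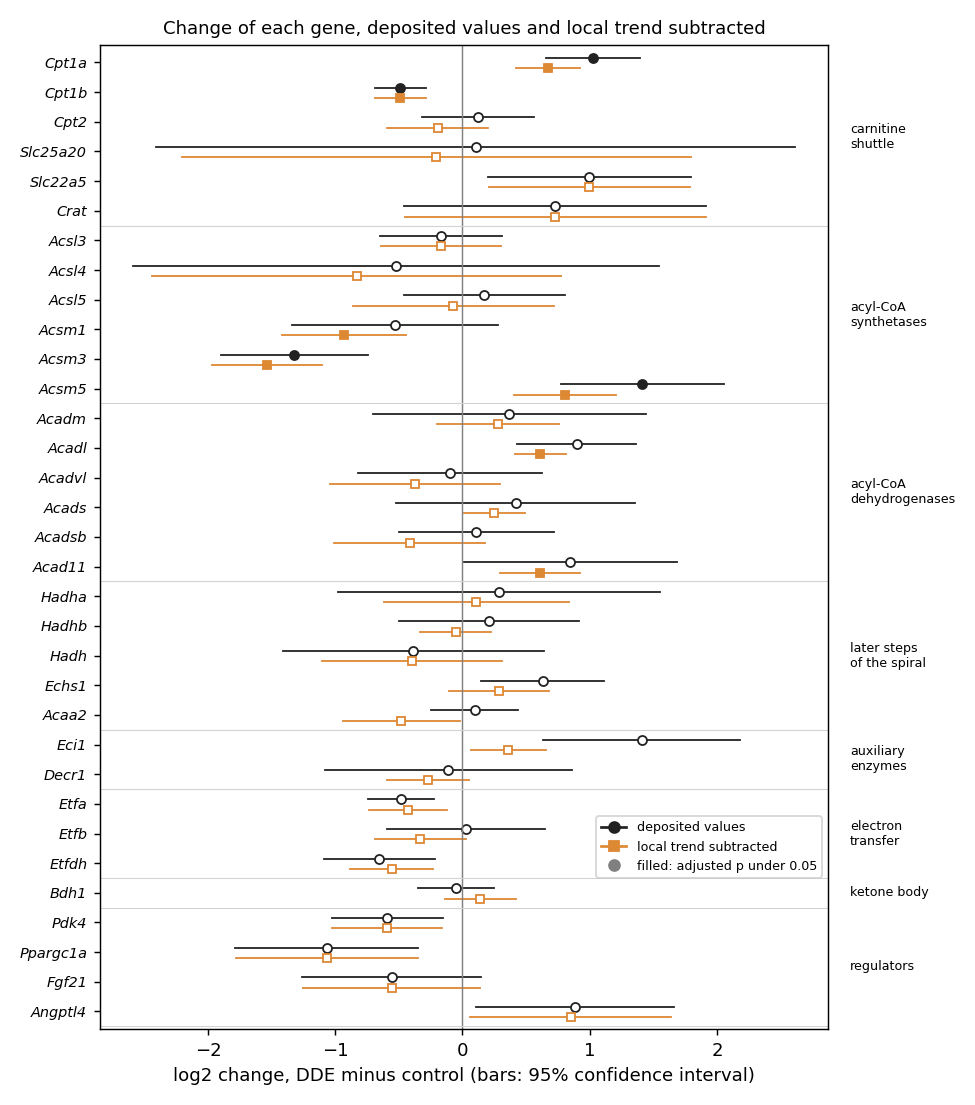
Log2 change (DDE minus control, x axis) with its 95% confidence interval for the 33 genes, from deposited values (black) and with the local trend subtracted (orange), filled where the adjusted p is under 0.05. Cpt1a, Cpt1b, Acsm3 and Acsm5 are filled in both, Acsm1, Acadl and Acad11 only with the trend subtracted, and the change of Eci1 moves from 1.41 to 0.36. Cpt1b was too dim to be corrected, so both of its symbols show the same change.

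Ketogenesis was represented by Bdh1, which reduces acetoacetate to beta-hydroxybutyrate. Its brightest probe had 12.35, 12.45, 12.63 and 12.33 in controls and 12.24, 12.34, 12.71 and 12.26 after DDE. The groups overlapped, with an interval of the change from -0.35 to 0.25 (adjusted p = 0.851), and its 3 probes changed by -0.22 to 0.14. Of 5 other measured ketone body genes, 1 fell and 0 rose, also with the local trend subtracted, while 3.35% of all genes passed in either direction. That gene was Oxct1, the enzyme that starts the use of ketone bodies in tissues outside the liver. Its level was 11.50, 11.00, 11.48 and 11.27 in controls, and the DDE livers had 9.97, 9.59, 9.25 and 9.07. The groups were far apart, the fall was 3.59-fold (change -1.84, SE 0.21, adjusted p = 0.0113), and it passed in 24 of the 25 alternatives. The skeletal muscle marker levels given beside Cpt1b apply here as well, and their part in the Oxct1 result was not tested. Acat1, the mitochondrial acetoacetyl-CoA thiolase, changed by -0.66 (adjusted p = 0.117).

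The regulators and fasting-responsive genes did not pass on the deposited values. Ppargc1a, a coactivator of PPARalpha and of mitochondrial genes, had 9.01, 8.99, 9.09 and 10.31 in controls and 8.46, 8.39, 8.21 and 8.08 after DDE. No values overlapped, and control 4, on a stained spot, was far above the other controls (change -1.07, SE 0.31, adjusted p = 0.134). Without that array Ppargc1a fell by 0.75 (adjusted p = 0.0275), and with stained spots left out the fall was the same and also passed (adjusted p = 0.0175). Ppargc1a passed in 7 of the 25 alternatives, and all 7 left out this control 4 value, with its array or as a stained spot. It passed in no setting that kept the value. Its dimmer probe exceeded background in 1 control (control 2, 9.12, on a stained spot) and 0 DDE livers. The groups overlapped there (change -0.54, adjusted p = 0.633).

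Pdk4, which limits pyruvate use and is a PPARalpha target in fasting, had 9.03, 9.21, 8.45 and 8.46 in controls and 8.22, 8.23, 8.12 and 8.21 after DDE. The DDE values were tightly grouped below all controls, with a change of -0.59 (SE 0.19, adjusted p = 0.167). Fgf21, a fasting hormone of the liver, exceeded background in 2 controls and 1 DDE liver (change -0.56, adjusted p = 0.472). Angptl4, an inhibitor of lipoprotein lipase, had 11.06, 11.28, 12.00 and 11.08 in controls and 12.77, 12.41, 11.44 and 12.34 after DDE. It was the one regulator with a higher mean (0.89, interval 0.11 to 1.66, adjusted p = 0.257), and DDE 3 lay within the controls. The directions of these 4 genes therefore differed: 3 had lower means and 1 a higher one.

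Of 30 other oxidation enzymes, 0 rose and 2 fell on the deposited values, a share of 6.67% beside 3.35% of all genes. Among the 30, 21 were above background on all 8 arrays, and 7.18% of all such genes passed. This list, too, was chosen with earlier results of these data known, so its share cannot test for an excess. Once the local trend was subtracted, 2 of the 30 rose and 4 fell, where 7.70% of all genes and 17.6% of those above background on all arrays passed. Chosen after their values were seen, the additional genes were Acot2 (0.91, adjusted p = 0.00938) and Mcee (0.37, adjusted p = 0.0256) with higher values and Gcdh (-0.46, adjusted p = 0.0404) and Acsm2 (-2.09, adjusted p = 0.0473) with lower ones. Mlycd, which removes malonyl-CoA, the inhibitor of CPT1, had 8.60, 8.40, 8.40 and 7.96 in controls and 7.70, 7.48, 7.54 and 7.38 after DDE. Its fall was at least 1.59-fold (adjusted p = 0.0354), and 1 DDE value, on a stained spot, exceeded background. Mlycd, with a mean under 9, was not corrected, so its call with the local trend subtracted rests on the same values and is no check. Acad10, an acyl-CoA dehydrogenase relative, fell 1.96-fold (12.79 ± 0.32 to 11.82 ± 0.26, adjusted p = 0.0465). Mlycd passed in 15 of the 25 alternatives and Acad10 in 14. Among 14 genes of PPARalpha and its partners none passed in limma, and an unadjusted p under 0.05 was reached by 1 gene with a higher mean and 1 with a lower one. Ncoa1, a coactivator, had the smallest p (change -0.43, adjusted p = 0.313), and Ppara went from a mean of 10.13 ± 0.34 to 10.67 ± 0.54 (adjusted p = 0.485).

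Of 22 PPARalpha target genes outside mitochondrial oxidation, 4 rose and 0 fell on the deposited values, a share of 18.2% beside 3.35% of all genes. The list was chosen with earlier results of these data known, so its share cannot test for an excess. Of the 22, 20 were above background on all 8 arrays, and 7.18% of all such genes passed. Once the local trend was subtracted, 8 of the 22 rose and 1 fell, beside 7.70% of all genes and 17.6% of those above background on all arrays. The gene that fell there was Fabp2, an intestinal fatty acid binding protein (-1.16, adjusted p = 0.0344), named after its value was seen. Its highest control value (15.32, control 2) was on a stained spot. Besides Ehhadh, the additional risers were Acaa1b (0.85, adjusted p = 0.00959), Aldh3a2 (0.96, adjusted p = 0.016) and Pnpla2 (0.72, adjusted p = 0.00665). They were also named after their values were seen. Of the 4 that rose on the deposited values, Vnn1, a pantetheinase, rose 4.52-fold (adjusted p = 0.00888) and Cd36, a fatty acid transporter, 4.06-fold (adjusted p = 0.0482). Mogat1, a monoacylglycerol acyltransferase, rose 2.86-fold (adjusted p = 0.0258) and Fitm1, a lipid droplet protein, 2.19-fold (adjusted p = 0.0126). Mogat1, with a mean under 9, was not corrected, so its call with the local trend subtracted rests on the same values and is no check. Of the 25 alternatives, Vnn1 passed in 24, Fitm1 in 23, Mogat1 in 18 and Cd36 in 15. The highest values of Cd36 (11.68, DDE 4) and Mogat1 (10.02, DDE 2) were on stained spots. For Vnn1 the DDE 4 value (10.77) was on a stained spot, but its highest value (10.98, DDE 2) was not. Ehhadh, the peroxisomal bifunctional enzyme, had 11.27, 12.39, 11.30 and 11.40 in controls and 12.62, 12.78, 12.37 and 13.40 after DDE. Only control 2, on a stained spot, reached the DDE range. Its change, 2.30-fold, did not pass (adjusted p = 0.109), and it passed with the local trend subtracted (1.26, adjusted p = 0.0284). Cyp4a10, a fatty acid omega-hydroxylase, had 11.77 ± 0.60 and 13.04 ± 0.57 (adjusted p = 0.148), and Cyp4a14 exceeded background in 0 controls and 1 DDE liver.

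The members varied from array to array as a body. The median deviation of the 33 genes from their control means was 0.13, 0.22, -0.21 and -0.34 in controls 1 to 4 and 0.16, 0.23, 0.09 and -0.14 in DDE 1 to 4. These ranges overlapped, with control 4 the lowest. Hepatocyte markers, 8 of 8 above background on all arrays, had a mean log2 level of 14.32 to 14.67 in controls and 14.13 to 14.50 after DDE. Of these 8, Apoa1, an apolipoprotein of high-density lipoprotein, fell and 0 rose. Of 6 stellate cell and fibroblast markers, Reln rose and 0 fell. The part of both in the members' values was not tested. Markers of pancreatic acinar cells, 3 of 3 measured, were also above background on all arrays, with a mean log2 level from 11.01 to 15.36 in controls and from 12.14 to 14.46 after DDE. The 2 acinar ranges overlapped, and the part of this RNA in the members' values was not tested.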

How the data were processed

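The deposited values are log2 intensities, already normalized by the authors; per the labels, 1-colour Cy3 cRNA came from liver total RNA. The scanner, background correction and normalization method are not named in the labels or the file. Sorted values were nearly equal on all 8 arrays (mean range 0.0141 log2), between 4.43 and 16. The number of arrays limits the precision, and the labels number the samples without saying more about their source.

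Probes were named by the supplied annotation table (33009 with 1 symbol, 0 with several, 9948 with none); the symbols are those of mouse genes, and how well the probes match Mus spretus was not tested. All 42957 probes were fitted in limma 3.58.1 (R 4.3.3; lmFit, eBayes), DDE against control, two-sided, with Benjamini-Hochberg adjustment, a threshold of 0.05 and 95% intervals; the procedure was tested on simulated data. An array's background level is the 0.95 quantile of its olfactory and vomeronasal receptor probes on unstained spots (7.55 to 7.81). A fold is a lower bound where a value of the dimmer group was raised to it. Rows follow from probe numbers at 85 per row, a length inferred from the values. A spot is stained where the median deviation over 7 rows by 5 columns passes 0.3. The local trend is the median deviation of probes with a mean of at least 9 over 15 rows by 15 columns, subtracted at such probes only; it also removes a change shared by neighbouring bright probes.

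The members and lists were chosen with earlier results of these data known, so their shares beside those of all genes are description only. Every member is named; of other lists, the genes past the threshold (at most 4) or the one with the smallest p, and, fixed by name, Ppara, Ehhadh, Cyp4a10 and Cyp4a14. Some genes fixed by name are not reported here. Acat1 was added with its values known. The alternatives are listed with their effect in the closing section.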

Additional observations from a re-analysis of the deposited data

Results flagged for a closer look

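Of the 66 groups of 4 arrays (33 genes, control and DDE), 7 had 1 array far from the other 3, where chance alone gives about 1 in 20. Values were judged by the gap to the nearest array over the range of the group.

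Control 2 stood high for Slc25a20 (13.60, the others 8.63 to 9.40) and for Acsl4 (14.25, the others 10.41 to 10.87), and both spots lay in a stained patch. Control 4 stood high for Ppargc1a (10.31, the others 8.99 to 9.09), also on a stained spot. DDE 3 stood low for Acsm1 (11.94, the others 13.23 to 13.25) and for Acads (10.28, the others 11.31 to 11.43), where the local trend was -0.23 and -0.91. For Etfb, control 4 stood low (14.44, the others 15.49 to 15.57) and DDE 4 high (15.51, the others 15.18 to 15.23), with a local trend of -0.61 and 0.22.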

How the results depend on the processing

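Of 33 genes, 4 passed (2 higher, 2 lower), with a median change of 0.10. Quantile normalization, 75th percentile centring and a fit of 1 probe per gene each gave the same 4 genes. Stained spots left out gave 6 (3 higher, 3 lower), and control 4 and DDE 4 both left out gave 5 (2 higher, 3 lower). The count was 0 with an intensity trend and robust variance (0 higher, 0 lower) and 7 with stained spots left out and quantile normalization (4 lower). Array weights gave 4 higher and averaged probes 1 higher, while 1 was lower without dim probes, with values raised to background, or at a fold of at least 1.5. Leaving out 1 array at a time gave 0 to 5 genes (0 to 2 higher, 0 to 3 lower) and a median from -0.02 to 0.18; 4 of these 8 fits called 0 members (without control 2, control 3, DDE 2 or DDE 3). Settings added after seeing the data gave 7 (local trend subtracted; 4 higher, median -0.20), 9 (stained spots also left out; 4 higher, 5 lower), 7 (control 4 also left out; 5 lower, median -0.18), 4 higher (DDE 4 also left out) and 4 lower (both left out). Etfb turned from 0.03 to -0.32 without control 4 and DDE 4, and with the trend subtracted to -0.52 without both and -0.47 without control 4. Over all probes, 1289 passed, and 332 to 1596 with 1 array left out, 511 with the intensity trend, 2140 with array weights, 2593 with stained spots left out and quantile normalization, and 2939 with the local trend subtracted; the cause of these differences was not tested. With the replicate number as a block 0 members (0 higher, 0 lower) and 9 probes passed. On the deposited values same-numbered arrays correlated at 0.205, 0.139, 0.118 and -0.0824, and not every array correlated best with its own number. With the local trend subtracted they correlated at 0.143, 0.203, 0.043 and 0.059, and every array correlated best with its own number. The labels do not say whether the numbers mark pairs, so pairing cannot be settled here. The main fit did not take them as pairs. Of the 29 genes not called, 20 passed in no alternative and 9 in some. Dim genes such as Crat and Fgf21 are limited by background, and Acaa2 and Etfb by the top of the scale.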
